A study of Mus musculus with 15 samples.

Results

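The tissues described here are the liver tissues of a mouse with 1 floxed Trp53 allele (f/+), chosen by the genotype in the sample labels. They account for 6 of the 15 arrays of the series. Hepatocellular carcinoma (HCC) tumours 1 and 2 and the unaffected liver of mouse 3151 were each hybridised in both dye orientations. This mouse was a female of 16.4 months, Mad2(f/f) p53(f/+) with AlbuminCre on a C57BL/6.129 background, so Mad2l1 (Mad2 in the labels) was floxed on both alleles in all 3 tissues and Trp53 (p53) on 1. The reference DNA on these 6 arrays came from normal liver of a C57BL/6.129 male without these alleles in its label. The other 9 arrays were used where the genotypes are compared and for the spread in every statistical fit. They hold 3 HCC and 2 unaffected livers of 2 male Mad2(f/f) p53(f/f) mice with AlbuminCre. Mouse 3760 was of 13.8 months and mouse 4033 of 13.9 months, and their reference DNA was of a female. Genotype, sex, age and animal coincide for the f/+ tissues and cannot be told apart. Both tumours lay on 1 slide and the liver on another, so slide and tissue cannot be told apart within this mouse, although all 6 arrays were scanned on the same day.

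MAD2L1 is a core protein of the spindle assembly checkpoint, which holds a dividing cell in mitosis until every chromosome is attached to the spindle. Cells without it can enter anaphase early and missegregate whole chromosomes, and p53, the product of Trp53, is known to halt or kill many cells with damaged or unbalanced genomes. Albumin-Cre acts in hepatocytes, so other cells of a liver or tumour keep the floxed alleles, and per the study the resected tumours held some surrounding normal tissue. Array comparative genomic hybridisation averages the copy number over all cells of the tissue. Values are log2 of tissue over reference signal read the same way round on dye-swap arrays and centred on the median of the autosomal probes of each array, and the mean of both orientations is the value of a tissue. A value above 0 means more copies than the typical autosome of that tissue and a value below 0 fewer.

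Mean autosome levels of the same DNA differed between the dye orientations by at most 0.05 in tumour 1 and 0.07 in tumour 2. In the liver they differed by 0.05 to 0.11, lower on the forward array for every autosome. The liver was also the tissue with most single probes that disagreed between orientations: 292 of 40480 autosomal probes differed by more than 2 on the log2 scale, against 130 of 40505 in tumour 1 and 223 of 40525 in tumour 2. The autosome farthest from 0 in the liver was Chr4 at -0.18, and in the livers of mice 3760 and 4033 it was also Chr4, at -0.10 and -0.03. No p-value below 0.05 can come from permuting 2 tumours against 1 liver. The tests given are limma fits over all 8 tissues, in which the lone liver is assumed to vary like the other groups. Standard errors (SE) and p-values for f/+ HCC minus liver therefore also rest on the spread of the f/f tissues. Tumours of the same mouse enter these fits as separate samples. Nothing in the labels says that the dye orientations are separate DNA preparations, and they count as 1 sample.

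The targeted genes were examined first. Each name was carried by 1 probe. The study describes a probe in the removed stretch of each gene without naming it, and with no genome at hand the place of these probes relative to the loxP sites was not checked here. The array's oligonucleotides are printed whole from the deposited files, because the entire oligo is the measured site and no letters are capitalised. The Trp53 probe lies at chr11:69397121-69397180 and the Mad2l1 probe at chr6:66489958-66490017, in positions as the files give them. The genome build is not given in the sources used here.
Trp53: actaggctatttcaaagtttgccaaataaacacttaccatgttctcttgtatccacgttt
Mad2l1: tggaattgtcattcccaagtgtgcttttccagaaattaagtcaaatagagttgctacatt

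Both tumours read lower at the Trp53 probe than the liver. In tumour 1 its log2 ratio was -1.10 on the forward and -1.17 on the dye-swap array, and in tumour 2 it was -1.06 and -1.07. The liver labelled f/+ gave 0.12 and -0.25, a mean of -0.07, so a loss of the floxed Trp53 allele was not seen in it. All 4 tumour values lay below both liver values. HCC minus liver was -1.07 in tumour 1 and -0.99 in tumour 2. The mean of -1.03 ± 0.57 (SE) did not pass limma (adjusted p = 0.92 over 40720 autosomal probes). This SE pools the spread of all groups. At this probe the f/+ tumours were close, at -1.14 and -1.06, while the f/f tumours ran from -2.07 to -0.19. It is therefore not the spread of the f/+ tumours alone.

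The deficit at the Trp53 probe was deeper than that of Chr11, which carries the remaining allele. Relative to the Chr11 median, HCC minus liver at the probe was still -0.85 in tumour 1 and -0.68 in tumour 2. Its 5 neighbours on each side had a median HCC minus liver of -0.31 in tumour 1 and -0.39 in tumour 2. Among them Efnb3, an ephrin ligand gene, was lowest at -0.83 and -1.22, with liver arrays at 0.63 and 1.03. The nearest neighbour, AK084182, was at -0.59 and -0.57. Of all autosomal probes, 0.162% lay below the Trp53 probe in tumour 1 and 0.538% in tumour 2. In the f/f tissues the same probe stood at -2.03 and -2.07 in tumours 1 and 2 of mouse 4033 and -0.72 in its liver, and at -0.19 in tumour 2 of mouse 3760 and -0.88 in its liver. The f/+ tumours thus lay between the tumours of those mice.

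At the Mad2l1 probe tumour 1 gave -0.65 forward and -0.78 dye-swapped, and tumour 2 gave -0.97 and -1.48. The liver gave 0.02 and 0.00, so this tissue, labelled Mad2(f/f), showed no deficit at this probe. The label names floxed alleles and does not say how far they were recombined, so this probe does not test it. This tissue is called the labelled liver hereafter, and every HCC minus liver value rests on it. HCC minus liver was -0.73 in tumour 1 and -1.24 in tumour 2, with a mean of -0.98 ± 0.30 (SE) that did not pass limma (adjusted p = 0.76). Chr6, where Mad2l1 lies, was at the same time above the labelled liver in both tumours. The 10 neighbouring probes had a median HCC minus liver of 0.42 in tumour 1 and 0.47 in tumour 2, and relative to the Chr6 median the Mad2l1 probe stood at -1.09 and -1.57. Several of these neighbours depended on the dye: V1rc15, a vomeronasal receptor gene, gave -1.61 forward and 0.73 dye-swapped in tumour 1, and -1.91 and 0.67 in the labelled liver. The f/f tissues were all above 0 at the Mad2l1 probe, at 0.08, 0.53 and 0.59 in the tumours and 0.36 and 0.69 in the livers.

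**Figure D1:**
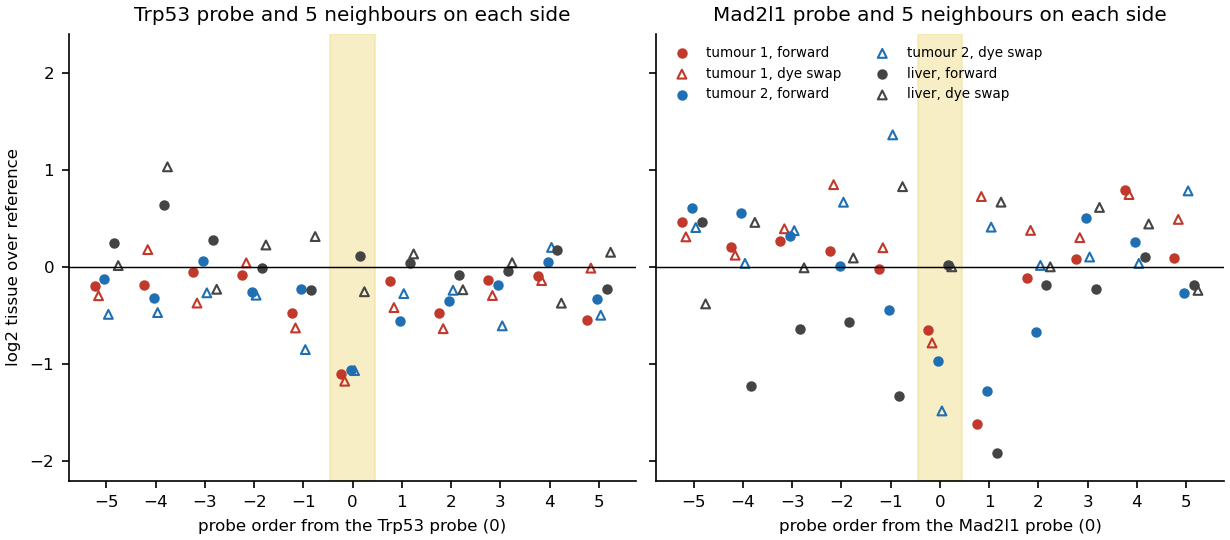
Log2 ratio of tissue over reference (y axis) on each array at the Trp53 probe and the Mad2l1 probe (shaded, position 0) and at their 5 neighbours on each side (x axis, in probe order). Filled circles are forward and open triangles dye-swap arrays. The 4 tumour arrays lie between -1.17 and -1.06 at Trp53 and between -1.48 and -0.65 at Mad2l1, while the labelled liver lies between -0.25 and 0.12.

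Whole chromosomes were compared next, to find which autosomes the tumours had gained or lost relative to the labelled liver. An event was a mean over all probes of an autosome that differed from the labelled liver by at least 0.3. The study applies the same distance to the ratio of tumour over normal, and against the reference in place of the labelled liver tumour 1 also had 4 gains, while tumour 2 had 4 gains and 4 losses. Tumour 1 had 4 events, all gains, and tumour 2 had 7 events, 4 gains and 3 losses. With each array centred on its mode the balance in tumour 2 turned to 2 gains and 5 losses, while tumour 1 kept a count of 4 gains and 0 losses. Chr6, Chr12 and Chr15 were gained in both, which is 3 of 19 autosomes or 15.8%, and no autosome passed 0.3 downward in both. Against the reference Chr6 of tumour 2 was at 0.269, short of 0.3, and its Chr18 was past it at 0.304. Only Chr12 and Chr15 were then gained in both. Both tumours share this liver, so their differences from it are not independent.

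Chr12 had the highest level in tumour 1, at 0.55 forward and 0.56 dye-swapped, and tumour 2 stood at 0.43 and 0.48. The labelled liver gave -0.04 and 0.07, and no liver array overlapped with a tumour array. The same was so on Chr6, Chr9, Chr15, Chr16 and Chr18, also with the tumours above. HCC minus liver was 0.54 in tumour 1 and 0.44 in tumour 2, a ratio of 1.46 and 1.36. Of the 1512 Chr12 probes, 98.0% were above the labelled liver in tumour 1 and 92.5% in tumour 2. The mean of 0.49 ± 0.21 (SE) was the largest of the 19 autosomes and did not pass limma (unadjusted p = 0.021, adjusted p = 0.40).

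Chr15 had the highest level in tumour 2, at 0.50 forward and 0.51 dye-swapped, and tumour 1 gave 0.33 and 0.32. The labelled liver was at -0.04 and 0.04. HCC minus liver was 0.33 in tumour 1 and 0.50 in tumour 2, with a mean of 0.41 (limma adjusted p = 0.48). Chr6 was more alike in the tumours, at 0.31 and 0.33 in tumour 1 and 0.24 and 0.30 in tumour 2, with -0.09 and -0.01 in the labelled liver. Its HCC minus liver was 0.37 in tumour 1 and 0.32 in tumour 2 (limma adjusted p = 0.66). With forward arrays left out, Chr15 of tumour 1 came to 0.28, with each array centred on its mode Chr6 of tumour 2 came to 0.22, and after normexp background correction to 0.28.

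Chr16 was the fourth gain of tumour 1, at 0.37 forward and 0.39 dye-swapped against -0.07 and 0.03 in the labelled liver, or 0.39 HCC minus liver. Tumour 2 was lower there, at 0.18 and 0.24, or 0.23 HCC minus liver. Chr18 was higher than the labelled liver by 0.09 in tumour 1 and 0.22 in tumour 2. Chr9 and Chr13 were higher by 0.06 to 0.13.

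The losses past 0.3 were all in tumour 2. Chr7 was -0.34 HCC minus liver in tumour 2 and -0.16 in tumour 1. Chr3 was -0.33 in tumour 2 and 0.10 in tumour 1. Chr11, which carries the remaining Trp53 allele, was at -0.32 on both arrays of tumour 2 and at -0.23 and -0.21 in tumour 1, with -0.04 and 0.03 in the labelled liver. Its HCC minus liver was -0.31 in tumour 2 and -0.21 in tumour 1, and 10.3% and 13.8% of its 2979 probes lay above the labelled liver. After normexp background correction Chr3 of tumour 2 came to -0.27 and Chr11 to -0.28, short of 0.3. Centring on the mode moved the losses of tumour 2 the other way, to -0.44 for Chr7, -0.43 for Chr3 and -0.41 for Chr11. Chr17 lay just inside the limit at -0.28 in tumour 2 and -0.17 in tumour 1, and with mode centring Chr17 and Chr1 of tumour 2 came to -0.38 and -0.37. On Chr7, Chr11 and Chr17 all 4 tumour arrays lay below both liver arrays, and on Chr6, Chr9, Chr12, Chr15, Chr16 and Chr18 they lay above both. The orientations of a tissue count as 1 sample and only 1 liver was compared, so this separation is a description without a test.

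Other autosomes separated the tumours from each other. Chr14 was at -0.17 and -0.14 on the arrays of tumour 1 and at 0.36 and 0.40 on those of tumour 2, with -0.02 and 0.07 in the labelled liver. HCC minus liver was therefore -0.18 in tumour 1 and 0.35 in tumour 2. The value of tumour 1 minus tumour 2, which does not involve the liver, was -0.53 for Chr14, 0.42 for Chr3, -0.31 for Chr19 and 0.31 for Chr1. These are differences between single tumours and were not tested. Centring on the mode raised tumour 1 by 0.10 and lowered tumour 2 by 0.11. Tumour 1 minus tumour 2 then became -0.32 for Chr14, 0.63 for Chr3, -0.10 for Chr19 and 0.52 for Chr1. Under that centring Chr5, Chr8, Chr10 and Chr19 of tumour 1 turned from below to above the labelled liver and Chr4 did so too, while Chr9, Chr10 and Chr13 of tumour 2 turned from above to below.

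**Figure D2:**
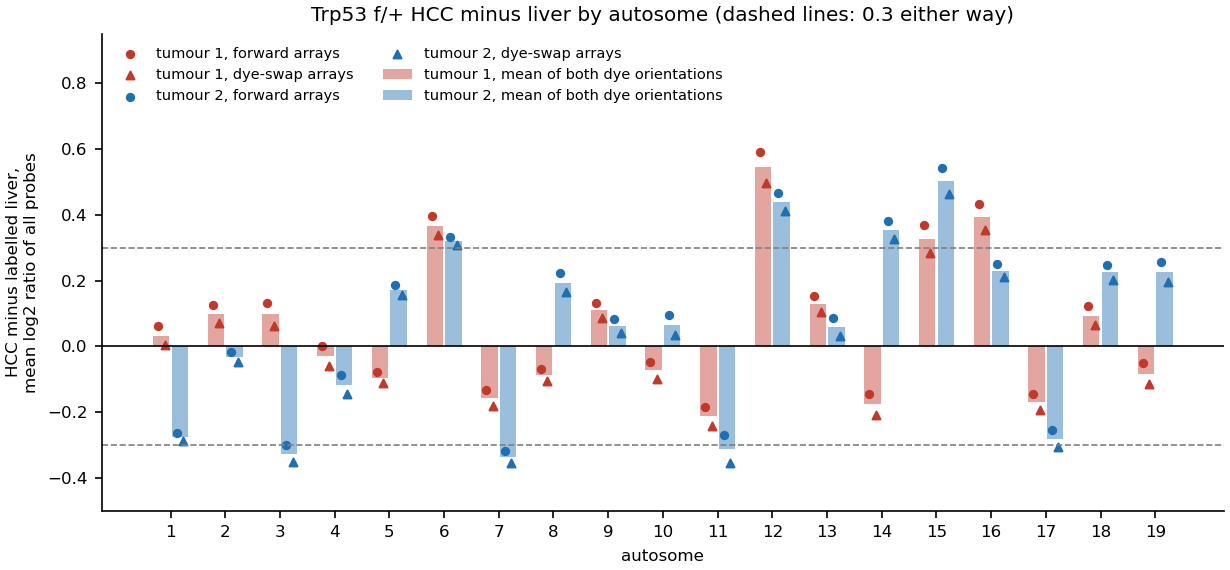
HCC minus labelled liver for each of the 19 autosomes (x axis) as the mean log2 ratio of all probes of the autosome (y axis), with tumour 1 in red and tumour 2 in blue. Bars are the mean of both dye orientations, circles the forward and triangles the dye-swap arrays, and dashed lines mark 0.3 either way. Chr6, Chr12 and Chr15 are past 0.3 in both tumours, and Chr14 is at -0.18 in tumour 1 and 0.35 in tumour 2.

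No autosome passed limma for f/+ HCC minus liver (0 of 19 at an adjusted p threshold of 0.05, a background of 0%), and 1 of 19 (5.26%), Chr12, had an unadjusted p under 0.05. The standard error was 0.21 for every autosome, because the fit used 1 variance pooled over all 19. It does not follow the spread of a single autosome: the SD of the f/+ tumours was 0.03 for Chr6 and 0.38 for Chr14. The sum of absolute HCC minus own liver values over the 19 autosomes, used as an aneuploidy score, was 3.27 in tumour 1 and 4.52 in tumour 2. The 3 f/f tumours scored 2.89, 4.27 and 5.77, so the genotypes overlapped. The f/+ tumours averaged 3.90 ± 0.88 (SD, n = 2), the f/f tumours averaged 4.31 ± 1.44 (SD, n = 3), which is -0.41 as f/+ minus f/f and smaller than either SD (exact permutation test over 10 splits, two-sided p = 1, where the smallest p possible is 0.2). The tumours were exchanged as if independent, although both f/+ tumours and 2 of the 3 f/f tumours each share a mouse. The difference turned to 0.21 without tumour 1, 0.31 without tumour 1 of mouse 4033 and 1.00 without the liver of mouse 4033, which removes its 2 tumours from the score, and was -1.33 on dye-swap arrays.

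To ask whether the autosome changes depended on genotype, f/+ HCC minus liver was set against f/f HCC minus liver. All f/+ tissues came from 1 mouse and the f/f tissues from 2 mice. The limma p-values here therefore measure spread between tissues, and spread between f/+ mice was not measured. No autosome differed after adjustment (limma, 0 of 19, and 1 or 5.26% at an unadjusted p under 0.05). Chr12 came nearest. The f/f tumours stood at -0.25, 0.10 and -0.38 relative to their own livers where the f/+ tumours stood at 0.54 and 0.44, and these groups did not overlap. The difference between the effects was 0.66 ± 0.26 (SE, adjusted p = 0.25). With scan day as a block it was 0.80 (limma adjusted p = 0.011), and the same value came from leaving out tumour 2 of mouse 4033, the only f/f tissue scanned with the f/+ tissues. The scan-day block acts on that tissue alone, so these settings are 1 analysis. It takes out the f/f tumour that stood above its own liver, at 0.10. Over all 18 alternatives, which count that analysis under both names, the difference ran from 0.57 to 0.80 and the limma adjusted p from 0.011 to 0.91. Chr6 stood at -0.05, 0.29 and -0.35 in the f/f tumours, and the effects differed by 0.38 ± 0.26 (SE, adjusted p = 0.79). Chr15 stood at 0.28, 0.70 and 0.54 in the f/f tumours, and the difference between the effects was -0.09 ± 0.26 (SE, adjusted p = 0.79).

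Chromosome means hid changes within chromosomes, so the position of each step in HCC minus liver was sought along the probes. Segments had at least 5 probes, and a step was a difference of at least 0.2 between neighbouring segments. Tumour 1 had 6 breakpoints and 5 steps, on Chr1, Chr5 and Chr15. Tumour 2 had 6 breakpoints and 3 steps, on Chr1, Chr12 and Chr16. These counts depended on the settings: tumour 1 had 12 steps on forward arrays and 23 at a penalty of 2 in place of 3, and tumour 2 had 7 at that penalty. With segments of at least 3 probes they had 11 and 5, and against the reference 61 and 48, where the labelled liver itself was cut into 72 segments. Of the 19 autosomes, 16 in tumour 1 and 14 in tumour 2 had no breakpoint. The segments were chosen on these values, so their sizes are a description without a test. Probes at both edges of 4 steps, 2 from each tumour and none from the short Chr1 stretch of tumour 1, are printed with the tumour and chromosome, left edge first.
Tumour 1 Chr15 left, chr15:82696593-82696652: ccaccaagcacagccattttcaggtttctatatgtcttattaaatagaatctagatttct
Tumour 1 Chr15 right, chr15:82728343-82728402: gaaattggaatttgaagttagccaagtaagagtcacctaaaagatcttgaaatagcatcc
Tumour 1 Chr5 left, chr5:138636339-138636391: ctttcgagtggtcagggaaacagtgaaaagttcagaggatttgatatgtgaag
Tumour 1 Chr5 right, chr5:138684047-138684106: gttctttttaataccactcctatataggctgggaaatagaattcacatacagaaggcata
Tumour 2 Chr1 left, chr1:19224663-19224722: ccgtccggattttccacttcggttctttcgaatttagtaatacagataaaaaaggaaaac
Tumour 2 Chr1 right, chr1:19332221-19332280: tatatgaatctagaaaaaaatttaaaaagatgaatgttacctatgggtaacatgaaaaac
Tumour 2 Chr12 left, chr12:52823947-52824006: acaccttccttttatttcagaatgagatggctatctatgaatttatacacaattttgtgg
Tumour 2 Chr12 right, chr12:52847090-52847149: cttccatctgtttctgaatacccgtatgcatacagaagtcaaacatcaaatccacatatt

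In tumour 1, Chr1 held opposite changes that cancelled in its mean of 0.03. The proximal 77.4 Mb, with 1029 probes, was 0.32 above the labelled liver. A stretch of 21 probes and 0.71 Mb beginning at 82021018 then stood at -0.22, the next 17.7 Mb at 0.29, and from 101960228 to the end of the chromosome 1402 probes stood at -0.23. The last of these steps was -0.53 on the forward and -0.52 on the dye-swap arrays. The short stretch was less even between orientations, with a step of -0.65 forward and -0.44 dye-swapped. Its distal edge lay between probes that both carry the name Mff, a mitochondrial fission factor gene. The large distal step lay between probes of AK014872 and Cntnap5b, which were 1514 kb apart, so its place is the least certain.

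Chr5 of tumour 1 changed sign within 47.7 kb, between probes of BC038925 and BC055004. The proximal 2274 probes stood at -0.16 and the distal 338 probes, covering 13.8 Mb, at 0.35. The step was 0.53 forward and 0.50 dye-swapped. Tumour 2 changed by 0.08 across the same position and the labelled liver by -0.02. Tumour 2 had its own Chr5 breakpoint nearby, between 136232911 and 136253103. It went from 0.16 to 0.25 there, in the same direction but short of the 0.2 that makes a step.

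Chr15 of tumour 1 was higher in its distal part. The first 728 probes stood at 0.21 and the next 332 at 0.13, and the distal 20.7 Mb with 571 probes at 0.59. The step of 0.47 forward and 0.45 dye-swapped lay within 31.7 kb between probes that both carry the name Tcf20, a transcriptional coregulator gene. In tumour 2 the same segments stood at 0.53, 0.46 and 0.50, with no step. The event on Chr15 in tumour 1 therefore combined a shallow proximal and a deeper distal gain.

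In tumour 2, Chr1 stood at 0.05 over its first 170 probes and at -0.30 over the remaining 2587, a step of -0.31 forward and -0.39 dye-swapped between Tfap2b, a transcription factor gene, and Pkhd1, a gene of primary cilia and bile ducts. The Chr1 mean of -0.28 was just short of an event. Chr12 went from 0.61 over 440 probes to 0.37 over 1072 at a step of -0.25 forward and -0.23 dye-swapped, next to Ap4s1, a gene for a vesicle adaptor subunit. Chr16 went from 0.12 to 0.34 next to Mrtfb, a transcriptional coactivator gene of the actin and SRF pathway, and 9.0 Mb farther on it stood at 0.22.

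The 5 steps of tumour 1 and the Chr1 step of tumour 2 were found within 10 probes of the same place under all 12 alternatives tried. The Chr12 step was found in 9 and the Chr16 step in 7 of the 12, and neither was found on the dye-swap arrays alone. Across the 8 positions the labelled liver changed by at most 0.08 in size, and each f/f tissue by at most 0.06. The tumours shared no step. Tumour 1 changed by -0.34 across the flanks of the Chr1 step of tumour 2, since those flanks take in its own steps.

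**Figure D3:**
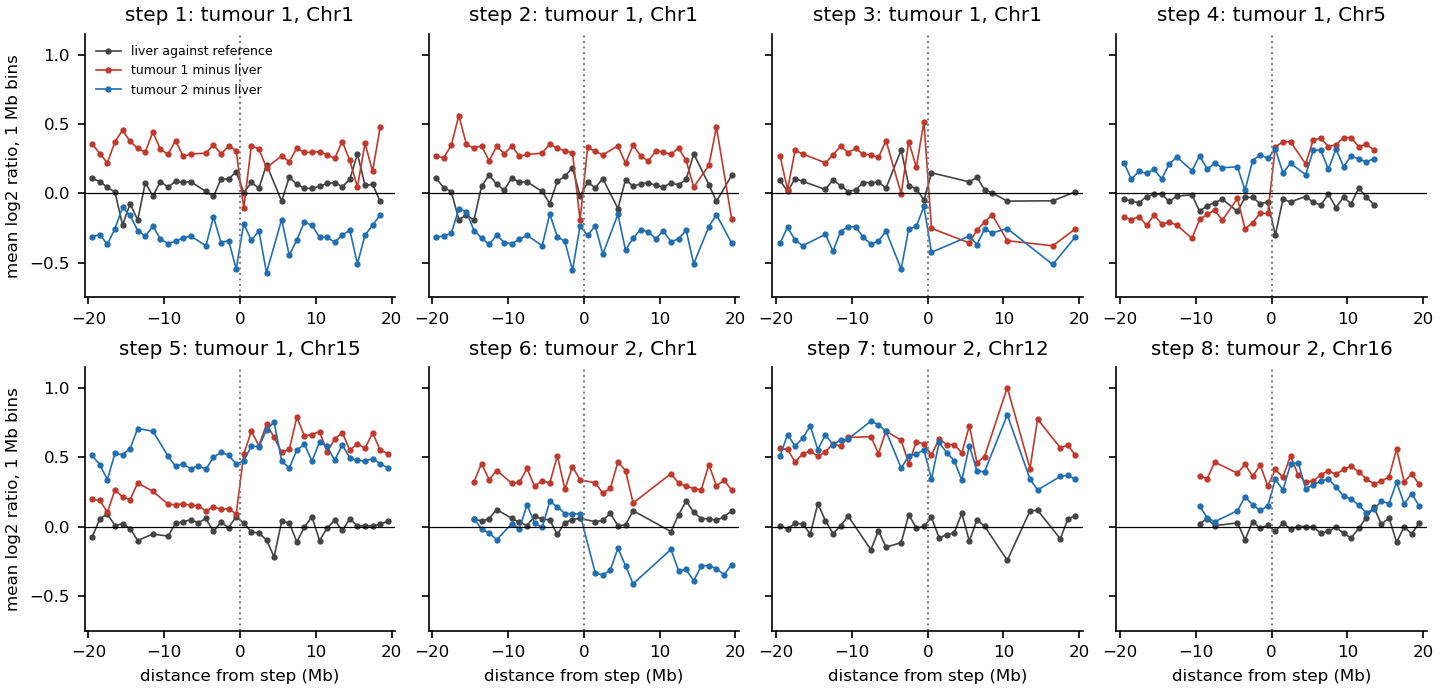
Mean log2 ratio in 1 Mb bins with at least 3 probes (y axis) against the distance in Mb from each of the 8 steps (x axis), for tumour 1 minus labelled liver (red), tumour 2 minus labelled liver (blue) and the labelled liver over reference (dark grey). At steps 3, 4 and 5 the red line changes by -0.52, 0.52 and 0.46 and at step 6 the blue line by -0.35. The grey line changes by at most 0.08 between the segments at these 8 places.

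Genes were next followed by role, each as the mean of its probes. Among all 19948 genes, 1896 or 9.5% were at least 0.3 above the labelled liver in both tumours and 1157 or 5.8% at least 0.3 below. No gene passed limma (0 of 19946 tested, 0%, with 1119 or 5.61% at an unadjusted p under 0.05), so the values of genes are descriptions. Neighbouring genes share the level of their segment, and a single probe scatters by about 0.20 in tumour 1 and 0.26 in tumour 2 around it.

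Of 30 genes of the p53 pathway 27 were measured. Of these, 2 (7.4%) were at least 0.3 above the labelled liver in both tumours and 3 (11.1%) below. The shares over all genes were 9.5% and 5.8%. The list's median was -0.06 in tumour 1 and 0.02 in tumour 2, against -0.00 and 0.01 over all genes. Those below were Trp53 itself, Bbc3, which encodes the pro-apoptotic protein PUMA, at -0.52 in tumour 1 and -0.84 in tumour 2, and Ppm1d, a phosphatase that switches p53 signalling off, at -0.34 and -0.49. Those above were Rrm2b, a ribonucleotide reductase subunit on Chr15, at 0.40 in tumour 1 and 0.78 in tumour 2, and Trp63, a relative of Trp53 on Chr16, at 0.44 and 0.31. Mdm2, which targets p53 for degradation, was at -0.14 in both. The p53 targets and repair genes on the gained Chr6 were uneven, with Gadd45a at 0.06 in tumour 1 and 0.54 in tumour 2 and Xpc at 0.73 and 0.20. The mean of Xpc was 0.74 on forward and 0.19 on dye-swap arrays. Bbc3, Ppm1d, Trp63 and Mdm2 were singled out after their values were seen.

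Of 26 spindle checkpoint genes 23 were measured, with 1 (4.3%) above and 2 (8.7%) below in both tumours, against 9.5% and 5.8% of all genes. The median was 0.03 in tumour 1 and -0.11 in tumour 2. The gene above was Zwilch, of the kinetochore complex that also holds Zw10, at 0.35 and 0.36. Those below were Mad2l1 and Birc5, which encodes survivin, at -0.30 and -0.34 on Chr11. Zw10 was among the genes that differed most between the tumours, at 0.03 in tumour 1 and 0.80 in tumour 2, although Chr9 around it was at 0.11 and 0.06. On forward arrays alone its mean HCC minus liver turned from 0.41 to -0.08. Espl1, the separase gene on distal Chr15, was at 0.41 and 0.30. Zwilch and Birc5 were singled out after their values were seen.

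Of 29 liver cancer oncogenes 27 were measured, with 5 (18.5%) above and 1 (3.7%) below in both tumours, against 9.5% and 5.8% of all genes. The median was 0.04 in tumour 1 and 0.03 in tumour 2. Among the 5 were Met, the hepatocyte growth factor receptor on Chr6, at 0.40 in tumour 1 and 0.33 in tumour 2, Braf, a MAP kinase pathway member on Chr6, at 0.36 and 0.35, Mycn, a MYC family transcription factor on Chr12, at 0.55 and 0.84, and Akt1, a growth signalling kinase on Chr12, at 0.63 and 0.54. Met depended on the dye, with a mean HCC minus liver of 0.11 on forward arrays, short of 0.3, and 0.62 on dye-swap arrays. Erbb2, a growth factor receptor gene on Chr11, was the gene below, at -0.47 and -0.49, and was singled out after its value was seen. Myc on Chr15 differed between the tumours, at 0.17 in tumour 1 and 0.96 in tumour 2 on its single probe, where the Chr15 segments stood at 0.21 and 0.50 in turn. Its mean over both tumours was 0.059 on forward and 1.07 on dye-swap arrays. Pik3ca, a lipid kinase gene on Chr3, was at 0.53 in tumour 1 and -0.14 in tumour 2. Tgfa, a growth factor gene on Chr6, was at 0.15 and -0.13 and did not follow its chromosome.

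Of 25 liver tumour suppressors 24 were measured, with 3 (12.5%) above and 0 (0%) below in both tumours, against 9.5% and 5.8% of all genes. The median was 0.03 in tumour 1 and 0.14 in tumour 2. The 3 were Arid2, a chromatin remodeller subunit on distal Chr15, at 0.78 and 0.73 over 4 probes, Cdkn1b, the p27 cell cycle inhibitor on Chr6, at 0.45 and 0.65, and Sav1, a Hippo pathway scaffold on Chr12, at 0.65 and 0.32. Stk3, the MST2 kinase of that pathway on Chr15, was at 0.24 and 0.49.

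Of 20 hepatocyte genes 18 were measured, with 1 (5.6%) above and 2 (11.1%) below in both tumours, against 9.5% and 5.8% of all genes. The median was -0.07 in tumour 1 and -0.15 in tumour 2. Apob, the structural protein of liver lipoproteins on Chr12, was at 0.61 and 0.67. G6pc, which releases glucose from the liver, on Chr11 was at -0.36 and -0.56, and Cebpa, a hepatocyte transcription factor on Chr7, was at -0.52 and -0.54. G6pc and Cebpa were singled out after their values were seen. Fabp1, a fatty acid binding protein on Chr6, was at 0.26 and 0.42. Cps1, the first enzyme of the urea cycle, lies in the proximal Chr1 segment that tumour 1 gained, and was at 0.50 in tumour 1 and -0.26 in tumour 2.

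At the level of single probes, 6 of 40720 passed limma for f/+ HCC minus liver (0.0147%), 5 lower (0.0123%) and 1 higher (0.00246%) in the tumours, with 2208 or 5.42% at an unadjusted p under 0.05. All 6 rested on the forward array of the labelled liver. The Slc7a2 probe, of a cationic amino acid transporter, read 4.82 on that array and 0.61 on its dye swap, while the tumour arrays lay between 0.09 and 0.39 (HCC minus liver -2.46 ± 0.25 (SE), adjusted p = 0.0095). The probes of 2610101N10Rik, Oscar, Galntl4 and Lyrm7 read 4.56, 3.53, 3.91 and 4.33 on that array and between -0.31 and 0.31 on its dye swap. The probe of 1190017O12Rik read -3.34 and 0.06. On the dye-swap arrays alone no probe passed limma (0, with 3480 at an unadjusted p under 0.05), and on the forward arrays alone 206 did. Neither the Trp53 nor the Mad2l1 probe was among the 6.

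**Figure D4:**
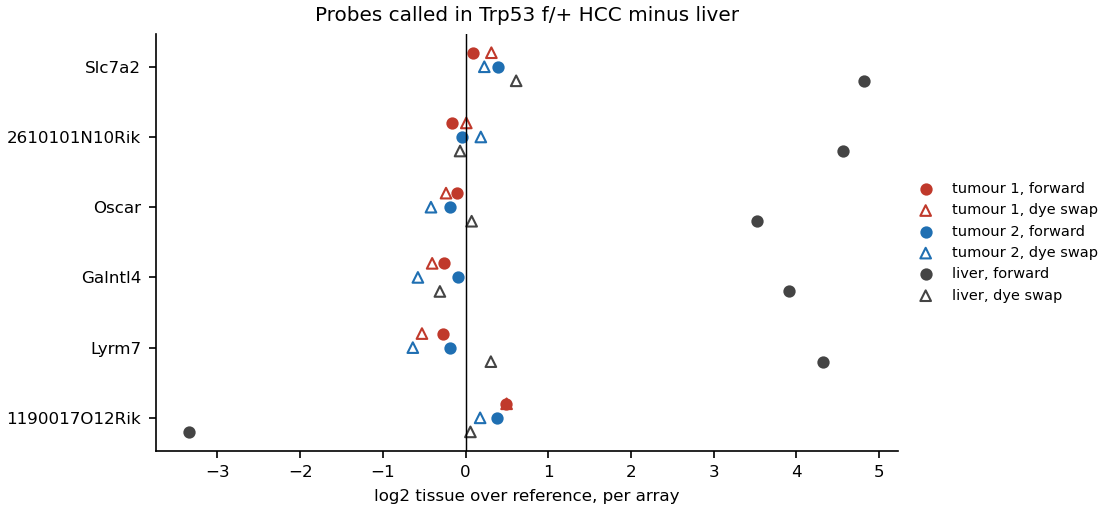
Log2 ratio of tissue over reference on each array (x axis) for the 6 probes that passed limma (y axis, by gene name). Circles are forward and triangles dye-swap arrays. For each probe 1 point, the forward array of the labelled liver, stands apart at 3.53 to 4.82 or at -3.34, and the other 5 lie between -0.64 and 0.61.

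Leaving out tumour 1 or tumour 2 left 0 probes past limma, as did leaving out tumour 1 of mouse 4033. Leaving out the liver of mouse 3760 or of mouse 4033 gave 11 probes and 6 genes. With the mouse as a block 22 probes and 12 genes passed limma, against 6 and 0 without it. For the difference between genotypes 1 of 40720 probes passed limma (0.00246%, with 1383 or 3.4% at an unadjusted p under 0.05), and 6 with the mouse as a block. That probe was Slc7a2.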

How the data were processed

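Genomic DNA was hybridised to 2-colour Agilent 44K mouse arrays. Per the file headers, the deposited intensity values were background-subtracted, detrended and dye-normalised by the authors with Agilent Feature Extraction 9.1.3.1. In the value table the authors deposited log10 ratios, which equalled the scanners' own red over green with swaps turned, and these served as an alternative. Log2 of tissue over reference was computed from the processed intensities, outlier-marked and control spots were left out, each array was centred on its autosomal median, and orientations were averaged. Median signal over background was 3.78 to 6.88 in green and 3.72 to 6.63 in red on the f/+ arrays, and 0.409% to 1.84% of spots were not well above background. The number of arrays limits the precision.

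Autosomes (mean of probes), probes and genes (mean of probes) were fitted over 8 tissues in 4 groups with limma 3.58.1 (lmFit, eBayes, R 4.3.3), two-sided, with Benjamini-Hochberg adjustment over all features. Segments came from optimal partitioning with a penalty per breakpoint of 3 × noise variance × ln(probes). Other steps used numba 0.67.0, scipy 1.17.1, pandas 2.3.3, numpy 2.4.6 and matplotlib 3.10.9 under Python 3.11.15, and scripts were tested on simulated data. Of 19948 gene names, 12824 were current symbols and 2250 matched an older symbol of the gene table.

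The tissues, lists and tests were chosen with earlier results of these data known. Named genes were Trp53, Mad2l1, list members on autosomes past 0.3 in both tumours, the 5 list members that differed most between tumours, the called probes and genes at step edges, and 2 of them, counted in their lists, are not reported here. Alternatives were normexp with an offset of 50, centring on the mode, single orientations, dim probes left out, chromosome medians, each tissue left out, mouse, slide and scan-day blocks, the series matrix, other thresholds and penalties and, chosen after seeing the data, GC content regressed out. Tissues of 1 mouse pair the groups. Deviations of tissues from their group means correlated at 0.049 to 0.097 within a mouse and at most 0.26 in size between mice. The f/+ liver, alone in its group, has no deviation. In a group of 2 tissues the deviations mirror each other, so the same values recur with the sign turned. Tumour 2 of mouse 3760 gave 0.097 with its own liver and -0.097 with the liver of mouse 4033. These correlations therefore cannot show whether pairing by mouse matters.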

Additional observations from a re-analysis of the deposited data

Results flagged for a closer look

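Chr9 stood on opposite sides of the liver in the genotypes. It was above the labelled liver in both f/+ tumours, by 0.11 and 0.06, and below the own liver in the 3 f/f tumours, by -0.28, -0.13 and -0.05. With arrays centred on the mode tumour 2 was at -0.04, below the labelled liver, so the pattern was not kept. The difference between the effects was 0.24 and did not pass limma (adjusted p = 0.79). The Slc7a2 probe differed between the genotypes by -2.68 (limma adjusted p = 0.044), a value that rests on the forward array of the labelled liver, where it read 4.82 against 0.61 on the dye swap.

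The 1569 X probes, which the autosome comparisons do not use, were lower in both f/+ tumours than in the labelled liver. The mean X level was 0.35 in tumour 1, 0.30 in tumour 2 and 0.88 in the labelled liver, whose reference was male. HCC minus liver was -0.53 in tumour 1 and -0.58 in tumour 2, larger in size than any autosomal loss of these tumours. A lower X was not particular to the f/+ tumours. In mouse 3760 the X level was -1.09 in tumour 2 and -0.87 in the liver. In mouse 4033 tumour 2 was also below the liver, at -1.30 against -0.92, while tumour 1 was above it at -0.68.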

How the results depend on the processing

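Chr12, Chr15 and Chr6 stayed above the labelled liver in both tumours under all alternatives. For f/+ HCC minus liver the 6 probes past limma became 10 after normexp correction, 2 with arrays centred on the mode, 206 on forward and 0 on dye-swap arrays. With the mouse as a replicate block there were 22, and with each tissue left out 0 to 11. Genes past limma numbered 72 on forward arrays, 12 with the replicate block and 0 to 6 with each tissue left out. For the difference between genotypes, 43 probes passed on forward arrays, 6 with the replicate block and 0 with mode centring, dye-swap arrays, dim probes left out or scan day as a block, and 0 to 1 with each tissue left out. The autosomes past limma there numbered 1 with scan day as a block and 0 to 1 with each tissue left out. The 1 came from leaving out tumour 2 of mouse 4033, which is the same analysis as the scan-day block. The replicate block changed no other call. Events of tumour 2 numbered 4 after normexp and 12 at a threshold of 0.2, and at 0.5 each tumour had 1. Tumour 1 had 12 steps on forward arrays, 23 at a penalty of 2, 11 with segments of at least 3 probes and 61 against the reference. Tumour 2 had 7, 5 and 48 under the last 3 of these. The score difference ranged from -1.12 to 1.00 with each tissue left out. The causes were not tested, except that fewer tissues enter a fit with 1 left out.

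Several values changed sign. With mode centring the Chr10 HCC minus liver became 0.00047 and the differences between genotypes 0.065 for Chr2, 0.0096 for Chr8 and 0.013 for Chr15. On forward arrays Chr10 became 0.024, Zw10 -0.077 and Cps1 -0.057. On dye-swap arrays Tgfa became -0.027. With scan day as a block the Chr15 difference was 0.00061. With GC content regressed out, chosen after seeing the data, Tgfa was -0.021. With each tissue left out, the HCC minus liver ran from -0.28 to 0.032 for Chr1, -0.032 to 0.099 for Chr2, -0.33 to 0.097 for Chr3, -0.096 to 0.17 for Chr5, -0.087 to 0.19 for Chr8, -0.073 to 0.064 for Chr10, -0.18 to 0.35 for Chr14 and -0.083 to 0.23 for Chr19. For genes it ran from -0.14 to 0.53 for Pik3ca, -0.13 to 0.15 for Tgfa and -0.26 to 0.50 for Cps1. These ends come from leaving out tumour 1 or tumour 2. The difference between genotypes ran from -0.13 to 0.097 for Chr2, -0.23 to 0.051 for Chr8, -0.12 to 0.24 for Chr10, -0.40 to 0.13 for Chr14 and -0.18 to 0.0029 for Chr15.

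The f/+ liver could not be left out, as no other liver of its genotype was analysed here. Tumour 2 of mouse 3760 had no dye swap and dropped out of that setting, and chromosome medians give no probe or gene values. Genes with 1 probe rest on 1 spot per array, on arrays with a median signal of 3.72 to 6.88 times background.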
